A study of Arabidopsis thaliana with 18 samples.

Results

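AT5G26330 and AT3G27200 are 2 Arabidopsis thaliana genes of the cupredoxin (plastocyanin-like) superfamily. Plastocyanin is the small copper-binding electron carrier of photosynthesis. Each was matched by its locus to 1 probe set, 246827_at and 257151_at. They are 2 of the 13286 genes that the annotation used here names on the Affymetrix ATH1 array, which holds 22810 probe sets. Their label calls them raised by VND6; the exact measure is not stated, and they are taken here to have been chosen by their change in VND6 cells, with or without the wt change taken off. Every value that rests on VND6 or wt arrays is therefore given for the 2 genes as a description without a test. The cells were suspension-cultured Arabidopsis cells of 3 kinds, namely cells transformed with an estrogen-inducible VND6, cells transformed with an estrogen-inducible SND1, and wild-type (wt) cells without either transgene. Each kind was sampled at 12 h and at 0 h of treatment with 2 µM estrogen, which makes 6 groups of 3 arrays. All 12 h groups had received estrogen, wt cells included, and no group was sampled at 12 h without it. The sources used here do not give the promoter behind the inducible factors or the number of independent lines.

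Plant cupredoxins outside the chloroplast are mostly phytocyanins, small secreted proteins that fold around a copper site or have lost it, and many of them are tethered to the outer face of the plasma membrane by a lipid anchor. They are grouped into stellacyanins, uclacyanins, plantacyanins and early nodulin-like proteins, and have been linked to wall deposition, pollen tube growth and reproduction. VND6 and SND1 are NAC transcription factors: VND6 is known as a switch of xylem vessel cells, which lay down a patterned secondary wall, lignify and die, and SND1 as a switch of the secondary wall of fibres. The question of the study is which early events each factor brings about. The annotation used here gives both members as locus codes only, so no role is stated for either.

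The signals are linear, scaled by the authors to a common mean on every array, and the median probe set of an array had 103 to 133. Of the 22810 probe sets, 15715 passed a filter on dim signal (the 40th percentile of its own array, a signal of 51.0 to 64.7, on at least 3 of the 18 arrays) and were tested. Within a group, Spearman's rho over the tested probe sets was 0.984 to 0.991 between replicates 2 and 3, and 0.872 to 0.958 between replicate 1 and either of them. The labels do not state whether the replicates are separate cultures; the p-values below therefore reflect no more than array-to-array spread, which may be technical. Of 8 genes listed as markers of vessel cells, 2 were named on the array by the annotation used. Their summed signal was 2549 to 3270 in VND6 cells at 12 h and 20.4 to 70.4 in the other 5 groups. The 3 genes listed for fibre walls, IRX15, IRX15L and IRX10, were all named. They summed to 361.9 to 464.2 in VND6 cells at 12 h and to 957.6 to 1316 in SND1 cells at 12 h. In the other 4 groups they summed to 96.0 to 184.5. Each of them was also higher at 12 h than at 0 h in VND6 cells, so they were not particular to SND1 cells. None of the 3 phloem markers was named. RCA, the single mesophyll marker named of 4, had 15.5 to 54.9 in the groups at 12 h and 441 to 1390 at 0 h.

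AT5G26330 was bright in 1 group and dim in the other 5. In VND6 cells it had a signal of 4646, 5953 and 7058 at 12 h, against 1.29, 2.07 and 3.73 at 0 h. In SND1 cells it had 52.7, 20.4 and 25.2 at 12 h, against 8.78, 1.1 and 4.32 at 0 h. In wt cells it had 4.22, 23.7 and 3.93 at 12 h, against 7.58, 2.97 and 6.18 at 0 h. The VND6 arrays at 12 h thus stood apart from all 15 others, and their lowest was 88.3 times the highest of those, which was SND1 replicate 1 at 12 h. The mean was 5886 ± 1207 in VND6 cells at 12 h and 32.7 ± 17.4 in SND1 cells at 12 h (SD, n = 3 each), a ratio of 180. On their own arrays the VND6 values at 12 h lay at the 96.5th to 98.1st percentile of all probe sets, and the VND6 values at 0 h at the 2.0th to 9.3rd.

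The order of the groups by mean signal of AT5G26330 was VND6 at 12 h, SND1 at 12 h (32.7), wt at 12 h (10.6), wt at 0 h (5.58), SND1 at 0 h (4.74) and VND6 at 0 h (2.37). Only the first step of that order had no overlap between arrays. The SND1 arrays at 12 h lay above all 12 arrays of the lower groups except wt replicate 2 at 12 h, whose 23.7 exceeded the 20.4 of SND1 replicate 2. Each of the last 4 groups overlapped its neighbour in that order, and none of their values lay above the 24.2nd percentile of its array. AT5G26330 was over the 40th percentile on the 3 VND6 arrays at 12 h and on no other array, so it passed the filter through that group alone and no test is given for it.

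AT3G27200 showed the same high group with a wider spread. In VND6 cells it had a signal of 1246, 3052 and 4437 at 12 h, against 50.9, 4.45 and 7.91 at 0 h. In SND1 cells it had 75.5, 172 and 143 at 12 h, against 37.6, 9.88 and 30.9 at 0 h. In wt cells it had 1.44, 3.96 and 8.16 at 12 h, against 25.5, 6.77 and 21.1 at 0 h. The lowest VND6 array at 12 h was 7.23 times the highest of the 15 others, and the lowest SND1 array at 12 h was 1.48 times the highest of the 12 arrays of the remaining groups. The means were 2911 ± 1600 in VND6 cells and 130.1 ± 49.6 in SND1 cells at 12 h (SD, n = 3 each), a ratio of 22.4. The highest of the VND6 arrays at 12 h was 3.56 times the lowest for this gene, and 1.52 times for AT5G26330.

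For AT3G27200 the order by mean was VND6 at 12 h, SND1 at 12 h (130.1), SND1 at 0 h (26.1), VND6 at 0 h (21.1), wt at 0 h (17.8) and wt at 12 h (4.52). The first 2 groups each stood clear of the next, and the 3 groups at 0 h overlapped one another. The wt arrays at 12 h overlapped those at 0 h through replicate 3, with 8.16 at 12 h against 6.77 in wt replicate 2 at 0 h. On all 3 SND1 arrays at 12 h AT3G27200 was over the 40th percentile, at the 42.2nd to 54.5th, so it was near the middle of the array there. Replicate 1 was the highest of the 3 arrays of each line at 0 h and the lowest of each line at 12 h for this gene; whether replicate 1 differed in handling was not tested. These are bulk RNA samples, in which more cells with a transcript and more of it per cell cannot be told apart.

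**Figure D1:**
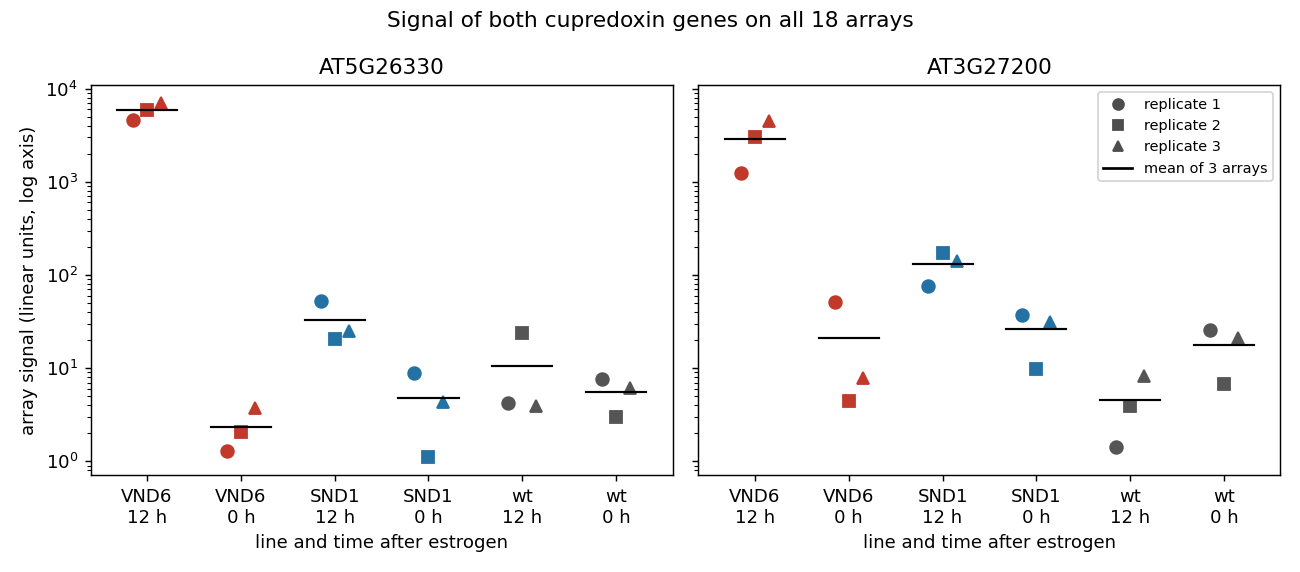
Array signal (log axis) of AT5G26330 and AT3G27200 in the 6 groups, 1 point per array with its replicate number as the symbol and a bar at the mean of 3 arrays. The 3 VND6 arrays at 12 h lie at 4646 to 7058 and at 1246 to 4437, above all others. The SND1 arrays at 12 h come next for AT3G27200, and for AT5G26330 they overlap with wt replicate 2 at 12 h.

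The next question was how each gene differed between 12 h and 0 h in cells with the other factor, SND1. AT3G27200 rose in SND1 cells, by 2.21 on the log2(signal + 4.32) scale (SE 0.68; limma, adjusted p = 0.0122 over all tested probe sets). The spread in that fit came from all 18 arrays, and with the SND1 arrays alone the adjusted p was 0.00591. AT3G27200 passed the filter on the SND1 arrays at 12 h as well as on the VND6 arrays, and on no array at 0 h. Its place among the tested probe sets thus rests on groups in which it was high, the 12 h group of this comparison among them. With no filter the limma adjusted p was 0.0166. For AT5G26330 the difference was 2.03 (SE 0.51), given without a test because every SND1 signal was under the 40th percentile of its array. In each gene the arrays of the 2 times did not overlap, the lowest at 12 h being 2.32 times the highest at 0 h for AT5G26330 and 2.01 times for AT3G27200. The share of all tested probe sets without such overlap was not counted, so nothing is read from this gap. Among all tested probe sets, 27.8% were called higher in this comparison, so a rise by itself was common at 12 h, and the 2 genes ranked 1130th and 890th by the size of the rise. The AT3G27200 call was lost without SND1 replicate 2 at 12 h (adjusted p = 0.0505), without SND1 replicate 2 at 0 h (0.0668) and when the mean of replicates 2 and 3 stood in for both (0.117).

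In wt cells over the same 12 h, AT5G26330 changed by 0.37 (SE 0.51) and AT3G27200 by -1.27 (SE 0.68), and in VND6 cells by 9.78 and 7.15. By replicate number, the change of AT5G26330 was 9.70, 9.87 and 9.78 in VND6 cells, 2.12, 2.19 and 1.77 in SND1 cells, and -0.48, 1.94 and -0.35 in wt cells. The wt value of replicate 2 thus lay within the range of the SND1 values, and the other 2 wt values lay below 0. The change of AT3G27200 was 4.50, 8.45 and 8.51 in VND6 cells, 0.93, 3.64 and 2.06 in SND1 cells, and -2.37, -0.42 and -1.03 in wt cells. For this gene the 3 lines did not overlap, and replicate 1 had the smallest change in each transformed line and the lowest value in wt. The SD of the VND6 change over the 3 numbers was 0.08 for AT5G26330 and 2.30 for AT3G27200. It rests on matching arrays by number, and whether the numbers pair the arrays was not tested. Without pairing, the SE of the VND6 change in the limma fit was 0.51 for AT5G26330 and 0.68 for AT3G27200.

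**Figure D2:**
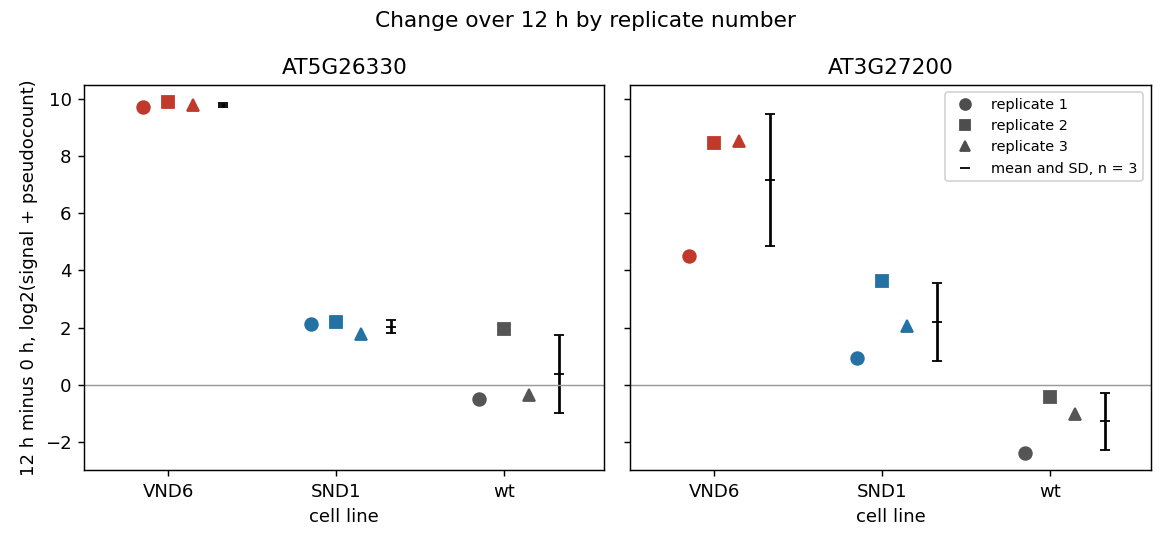
Change from 0 h to 12 h on the log2(signal + 4.32) scale by replicate number in VND6, SND1 and wt cells, with the mean and SD (n = 3) beside the points. The SD rests on matching arrays by replicate number, and whether the numbers pair the arrays was not tested. AT5G26330 lies at 9.70 to 9.87 in VND6 cells and 1.77 to 2.19 in SND1 cells, and AT3G27200 spreads from 4.50 to 8.51 and from 0.93 to 3.64.

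Taking the wt change off gives the response beyond wt, which uses the same wt arrays for both factors. For AT5G26330 it was 9.41 (SE 0.72) for VND6 and 1.66 (SE 0.72) for SND1. For AT3G27200 it was 8.42 (SE 0.96) for VND6 and 3.48 (SE 0.96) for SND1, and the wt change of -1.27 is a part of both. Of the tested probe sets 13.8% were called for VND6 and 5.87% for SND1 in these contrasts, and the median over all was -0.22 and -0.20. The VND6 response minus the SND1 response, in which the wt arrays do not enter, was 7.75 (SE 0.72) for AT5G26330 and 4.94 (SE 0.96) for AT3G27200. Of the tested probe sets 0.745% were called in that difference, and the 2 genes ranked 3rd and 18th by its size. The VND6 values are taken to have chosen the genes, so nothing is read from these places. The sizes moved with the pseudocount: the VND6 response of AT5G26330 was 10.9 without one and 7.99 with one 4 times larger, and that of AT3G27200 was 9.82 and 6.93. The SND1 response of AT5G26330 moved most in proportion, to 2.61 and 0.92.

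**Figure D3:**
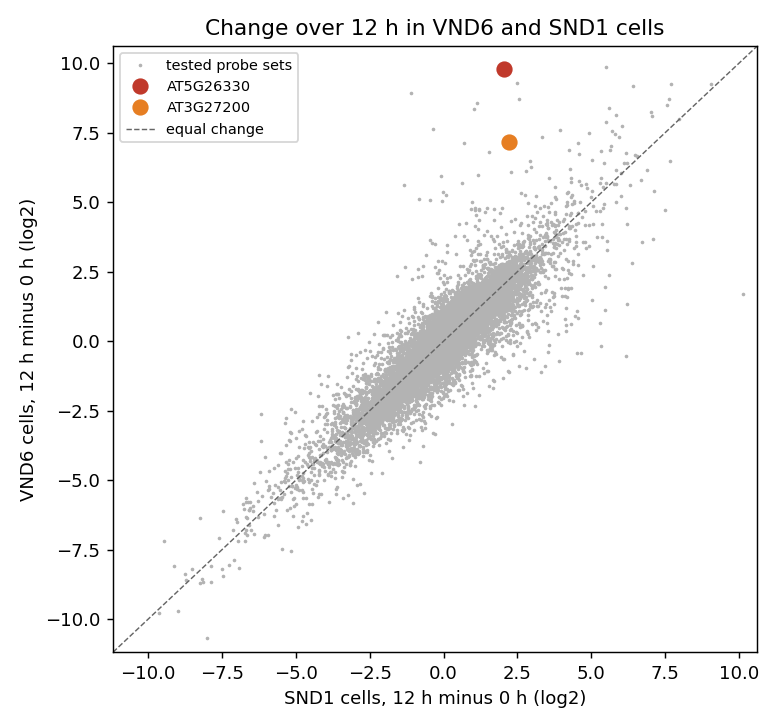
Change from 0 h to 12 h (log2) in VND6 cells (vertical) against SND1 cells (horizontal) for the 15715 tested probe sets, with the 2 genes as large points and a dashed line where both changes are equal. AT5G26330 (9.78 against 2.03) and AT3G27200 (7.15 against 2.21) lie above the line and to the right of 0.

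Before induction both genes were under the 40th percentile on every array of the 3 lines, so the differences at 0 h are given as values without a test. SND1 minus wt was -0.19 for AT5G26330 (SE 0.51) and 0.44 for AT3G27200 (SE 0.68). Of all tested probe sets, 2.34% were called in that comparison by limma, which is 368, and 583 with the replicate number as a block. VND6 minus wt at 0 h was -0.55 (SE 0.51) and -0.17 (SE 0.68). At signals this close to the floor, a small difference at 0 h was not detectable.

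A gene from the vessel list and a gene from the fibre wall list are set beside these values. AT5G66390 (PRX72), a class III peroxidase of lignin polymerisation, had 1610 to 1660 in VND6 cells at 12 h and 2.00 to 3.20 in SND1 cells at 12 h, within or under its range at 0 h in SND1 cells of 2.89 to 7.26. IRX15 (AT3G50220), which acts in xylan deposition, had the reverse order, with 33.2 to 73.9 in VND6 cells at 12 h and 500 to 707 in SND1 cells at 12 h, against 3.04 to 6.02 in VND6 cells at 0 h and 2.68 to 3.07 in SND1 cells at 0 h. At 12 h both cupredoxin genes, like AT5G66390, had the higher signals in VND6 cells, while in SND1 cells their signals at 12 h lay over those at 0 h, as did those of IRX15. These are levels of single probe sets and the pattern was not tested.

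Other members of the family and genes of copper use were looked up by locus from lists drawn from general knowledge of the family. Of 97 listed genes 15 were named on the array: 6 of 16 stellacyanin, uclacyanin and plantacyanin genes, 7 of 22 multicopper oxidase-like (SKU5-similar) and ascorbate oxidase genes, 1 of 17 laccases, 1 of 18 genes of copper supply, and 0 of 22 early nodulin-like genes and 0 of 2 photosynthetic plastocyanins. Of the 15, 10 were too dim to be tested, with signals of 0.527 to 69.8 on all arrays, and 5 of those 10 were phytocyanin genes. The means of the 6 phytocyanin genes were 1.79 to 36.4 in VND6 cells at 12 h and 2.71 to 35.2 in SND1 cells at 12 h, so none of the 6 was bright in either line. Most of the family, all early nodulin-like genes included, was thus not analysed here. The annotation used gave 1 gene for 13513 of the 22810 probe sets. Whether the genes not named have a probe set on the array is therefore not known here. Among the dim relatives, a higher mean at 12 h in SND1 cells was not particular to the 2 members. The phytocyanin gene AT1G22480 had 21.2 at 12 h against 5.06 at 0 h, and sks15, a SKU5-similar gene, had 42.0 against 2.685. Others went the other way, such as sks16 with 22.4 against 42.5. These differences were not tested.

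None of the 5 tested relatives was called in the VND6 response beyond wt, the SND1 response beyond wt or the difference of the responses by limma, and 0 had an unadjusted p under 0.05 in each. Over all tested probe sets 13.8%, 5.87% and 0.745% were called, shares at which 0 of 5 says nothing particular about the relatives. With replicates 2 and 3 only, 2, 1 and 0 were called. Their median was -0.75 in the VND6 response, against -0.22 over all tested probe sets, 0.01 in the SND1 response against -0.20, and -0.68 in the difference against -0.04. Within SND1 cells 2 of the 5 rose from 0 h to 12 h, 1 fell and 2 did not pass, with a median of 0.72 against 0.08 over all tested. Over all tested probe sets 27.8% were called higher and 22.8% lower, so with 5 genes these counts are not a result about the relatives. Between SND1 and wt cells at 0 h, 1 of the 5 was higher, which was SKU5 by 1.02 (adjusted p = 0.0147), and 4 did not pass, against 2.34% called over all.

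SKU5 (AT4G12420), a lipid-anchored multicopper oxidase-like protein that affects the direction of root growth, had the highest mean signal of the 15. It had 5532, 6891 and 8301 in VND6 cells at 12 h, against 462, 422 and 445 at 0 h. In SND1 cells it had 7017, 6205 and 6457 at 12 h, against 571, 469 and 425 at 0 h, a rise of 3.75 (SE 0.20, limma adjusted p = 1.16e-09). In wt cells it had 5190, 3438 and 3297 at 12 h, against 212, 257 and 246 at 0 h, so its 12 h arrays were the higher ones in every line. AT5G21105 rose by 1.27 in SND1 cells (SE 0.43, adjusted p = 0.0221), to a mean of 2846 ± 628 at 12 h, against 1162 ± 143 at 0 h (SD, n = 3 each). In wt cells it averaged 5649 at 12 h and 2140 at 0 h, and in VND6 cells 2036 and 1574.

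ARPN (AT2G02850), the plantacyanin of Arabidopsis, known from the pollen tube path of the pistil, was the single tested gene of the 16 on its list. It had 4.46, 39.8 and 19.9 in VND6 cells at 12 h, against 127, 219 and 168 at 0 h. In SND1 cells it had 27.6, 43.1 and 35.0 at 12 h, against 106, 156 and 139 at 0 h, a change of -1.81 (SE 0.64, adjusted p = 0.0274). In wt cells it had 6.25, 61.4 and 71.1 at 12 h, against 119, 212 and 218 at 0 h. Its arrays at 12 h were thus lower in all 3 lines, the opposite order to AT5G26330 and AT3G27200 in both transformed lines. The ARPN call was lost under 6 of 15 alternatives and the AT5G21105 call under 4 of 16, the loss of 1 array among them.

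The genes whose pattern was most like each cupredoxin gene were found by Pearson's r over the log2 values of the 18 arrays, among 8701 named genes, as a description. The 18 points share their 3 replicate numbers and 6 groups, the VND6 arrays at 12 h among them. For AT5G26330 they were AT1G10800 (r = 0.965), AT1G62170 (0.964), AT3G52900 (0.960), AT4G28650 (0.952) and AT1G23460 (0.950), the last from a probe set whose type can match several transcripts. Their mean signals in VND6 cells were 1378 to 5646 at 12 h, against 9.39 to 46.7 at 0 h, and in SND1 cells at 12 h 22.1 to 198.5. For AT3G27200 they were AT5G12260 (0.954), AT1G27690 (0.953), AT5G38610 (0.948), PIR121 (0.948), a subunit of an actin-regulating complex, and AT4G28650 (0.947).

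The 2 lists shared 1 gene of 5, AT4G28650, with 1957 ± 682 in VND6 cells at 12 h and 198.5 ± 25.0 in SND1 cells at 12 h (SD, n = 3 each). In SND1 cells this gene changed by 2.27, close to the 2.03 and 2.21 of the 2 cupredoxin genes. The other genes on the 2 lists changed less there, by 0.47 to 1.70. AT1G23460 changed by 0.70 in SND1 cells and by 0.72 in wt cells. AT5G12260, AT1G27690 and PIR121 on the second list had group means of 208.1 to 3499 outside the VND6 group at 12 h, and changed by 1.52 to 2.48 in VND6 cells, against 7.15 for AT3G27200, so a high r did not mean a change of like size. The r between AT5G26330 and AT3G27200 was 0.914, 16th for the first and 20th for the second. Over the 6 group means in place of the arrays, 3 of the 5 genes stayed for AT5G26330 and 1 of the 5 for AT3G27200, where AT2G03200 came first (r = 0.995).

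**Figure D4:**
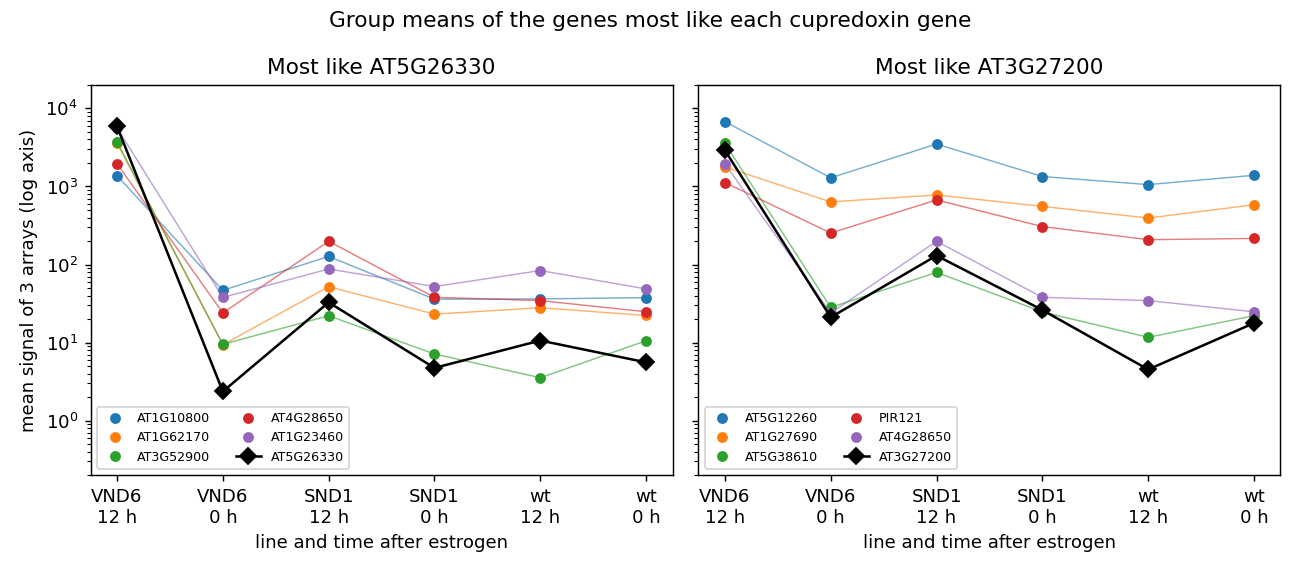
Mean signal of 3 arrays (log axis) in each group for AT5G26330 (left) and AT3G27200 (right, both black diamonds) and the 5 named genes most like each over 18 arrays. On the left the 5 genes reach at most 198.5 outside VND6 cells at 12 h, and on the right AT5G12260, AT1G27690 and PIR121 do not go below 208.1 in any group.

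The genes on both sides of each member were also looked at, a choice made after the members' values were seen. In the gene order of the RefSeq annotation of assembly TAIR10.1, 4 protein-coding genes were taken on each side of each member, 16 in all, of which 8 were named on the array and 7 tested. Their change in VND6 cells was -1.57 to 2.12, with a median of 0.40, against 9.78 for AT5G26330 and 7.15 for AT3G27200. The nearest tested gene beside AT3G27200, AT3G27210, had a mean of 619.1 in VND6 cells at 12 h and 1395 at 0 h. Beside AT5G26330 the nearest tested gene was AT5G26360, with 12010 in VND6 cells at 12 h and 7213 at 0 h. In wt cells it had 9796 at 12 h and 5532 at 0 h. It lies 2 places from AT5G26330, and the genes directly on either side of AT5G26330 were not named. Of the 8 neighbours of AT5G26330 only 2 were tested, against 5 of the 8 of AT3G27200.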

How the data were processed

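Per the labels' protocols, biotinylated cRNA from total RNA was put on the arrays; 2 labelling kits are named there without being tied to samples. The deposited values are linear intensity signals of each probe set on each array. The submitters' processing notes name GCOS, with no version, and the sources used here do not give its algorithm. The 2% trimmed mean was 500.045 to 500.058 on every array, so the authors' scaling was kept. The array annotation gave 1 gene for 13513 probe sets and 13436 of them matched RefSeq (TAIR10.1, names and gene order only).

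The 64 control probe sets were left out, values were taken as log2(value + 4.32), the 10th percentile of the table, and a limma model (version 3.58.1, R 4.3.3; lmFit, eBayes with trend) was fitted with a mean for each group over all 18 arrays, 2-sided, with Benjamini-Hochberg adjustment over 15715 probe sets and calls under 0.05. Comparisons in which a member was under the filter in every group compared are given as values, with no test. The fit was tried on simulated arrays with known changes and independent spread. Those arrays held no difference between replicate numbers, so they cannot show how the difference of replicate 1 affects the calls. Precision is limited by how many arrays there are. The members and lists were chosen with earlier results of these data known. Where several probe sets carried 1 gene, the brightest stood for it. Relatives were taken from lists of loci, and a search of RefSeq symbols and synonyms, used because the table given has no descriptions, added none. Relatives named with values are those called in a response beyond wt or in the difference (0) and the 3 brightest tested; 5 like genes are named per member.

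The departures of arrays with the same replicate number from their group's mean correlated at 0.188 to 0.380 between the times within each line. Between SND1 and wt at 0 h they correlated at 0.304 to 0.486. The values were 0.023 to 0.186 between VND6 and wt at 0 h, and 0.0384 to 0.141 between VND6 and SND1 at 12 h. Arrays with different numbers were not compared and replicate 1 stood apart in every group. Whether the numbers pair the arrays was therefore not tested. The tests given use no pairing, and a fit with the replicate number as a block was an alternative. Alternatives were the normalization, filter, pseudocount, trend, arrays fitted, replicate block and replicates left out or averaged. No sequence of the members was used here.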

Additional observations from a re-analysis of the deposited data

Results flagged for a closer look

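For AT3G27200 the change over 12 h, with arrays matched by replicate number, was above 0 in VND6 and in SND1 cells (3 of 3 each). In wt cells it was below 0 (3 of 3). Whether the numbers pair the arrays was not tested. The wt arrays of the 2 times overlapped, with 8.16 in replicate 3 at 12 h and 6.77 in replicate 2 at 0 h. Another matching can therefore change the sign in wt cells. How many other probe sets had such signs was not counted. The response beyond wt was 8.42 for VND6 and 3.48 for SND1 on the log2 scale. The difference was not tested, since the gene is taken to have been chosen on its change in VND6 cells and both values use the same wt arrays. The wt signals behind this were dim, 1.44 to 8.16 at 12 h against 6.77 to 25.5 at 0 h.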

How the results depend on the processing

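The SND1 change of AT3G27200 over 12 h kept its direction under all 16 alternatives and its call under 13; it was 1.89 (not called) with replicates 2 and 3 averaged and 1.73 to 2.55 without 1 array. At 0 h the SND1 minus wt value of AT5G26330 ran from -0.50 to 0.13 without 1 array. Without a pseudocount and with one 4 times larger, the VND6 response beyond wt was 10.9 and 7.99 for AT5G26330 and 9.82 and 6.93 for AT3G27200, the SND1 response was 2.61 and 0.92 for AT5G26330 and 4.54 and 2.42 for AT3G27200, and the difference of the responses of AT5G26330 was 8.28 and 7.07 (7.44 to 8.11 without 1 array). Probe sets called in the VND6 response numbered 2174, and 1049 with only the arrays compared, 7585 with replicates 2 and 3 only, 126 with them averaged and 1099 to 3437 without 1 array. In the SND1 response they numbered 923, against 5469, 62 and 463 to 1041 under the last 3 of these, and in the difference 117, against 2586, 12 and 66 to 194. For SND1 over 12 h they numbered 7951, and 4955 with replicates averaged. For SND1 against wt at 0 h they numbered 368, and 1 with only the arrays compared, 583 with the replicate block, 4510 with replicates 2 and 3 only, 0 with them averaged and 102 to 846 without 1 array. Relatives called for SND1 over 12 h numbered 3, and 1 with replicates averaged and 1 to 3 without 1 array; at 0 h 1, and 0 with only the arrays compared or with replicates averaged, 2 with replicates 2 and 3 only and 0 to 1 without 1 array; in the VND6 response 0, and 2 with replicates 2 and 3 only; in the SND1 response 0, and 1. The replicate block did not change the call of AT3G27200 in SND1 cells over 12 h (adjusted p = 0.0122). The cause of these shifts was not tested. Signals near the floor limit what can be seen at 0 h.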
